A study of Mus musculus with 24 samples.

Results

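A series of 24 mouse arrays held 10 sham right ventricles. Of these, 3 (Sham 3, 4 and 10) carried strong signal of the atrial heart muscle genes Myl7, Sln, Myl4 and Nppa. On 3 others (Sham 1, 2 and 5) these genes were far lower, though Myl4 and Nppa were still well above background. These 6 arrays are compared here. They were chosen by their measured Myl7 level, the log2 signal of its brightest probe minus the array's 75th percentile: above 2 on the strong arrays and below -4 on the weak ones. A low level of Myh7, the slow myosin heavy chain, was part of the choice, and all 6 arrays lay there. Sham 7, 8 and 9 also had Myl7 below -4 but were left out for their high Myh7. Because the sets were selected on these same arrays, every difference between them is a description of sizes, without a test.

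Cardiac muscle cells of atria and ventricles share most of their contractile machinery but use different light chains. Atrial cells carry Myl7 and Myl4, slow calcium uptake with sarcolipin (Sln) rather than mainly with phospholamban, and store atrial natriuretic peptide (Nppa) in granules for release on stretch. Working ventricular muscle of the healthy adult mouse holds little of these products, while Nppa returns in stressed ventricle.

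The study asked how right ventricles under combined pressure and volume load (PSPI) differ from sham-operated controls. The strong and weak sets both came from sham surgery, both were labelled as right ventricle of the heart, and both have the strain label M/FVB/10-12, which the PSPI samples have too. No genotype, age field or operation date separates the sets, and the sham titles give no month after surgery. Whether the labelled replicates came from separate animals is not stated.

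The arrays of each set did not count as 3 independent samples. The distance between 2 arrays was taken as the median absolute log2 difference over the 300 genes that varied most in the series. Among Sham 3, 4 and 10 it was 0.13 to 0.25, and between Sham 1 and 5 it was 0.36. Arrays of different sets lay 0.89 to 1.17 apart, and Sham 2 lay 0.55 from Sham 1 and 0.58 from Sham 5. The strong set was therefore counted as 1 sample and the weak set as 2 (Sham 1 with 5, and Sham 2), and no SD is given. Sham 1, 2, 3 and 4 shared slide 1 and Sham 5 and 10 shared slide 3, so each slide held arrays of both sets. The share of probes well above background was 40.6%, 40.6% and 41.4% on Sham 3, 4 and 10, against 36.6%, 39.1% and 46.6% on Sham 1, 2 and 5.

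The signal that chose the sets was read by a 60-base probe for Myl7, which the array design places at chr11:5798186-5798435 of mm9, a span longer than the probe. Bmp10, a growth factor of atrial muscle, was read by a 60-base probe at chr6:87384427-87384486 of mm9. Both are shown because the atrial signal of the strong set rests on such single probes.
Myl7 probe: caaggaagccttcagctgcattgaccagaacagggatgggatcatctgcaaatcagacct
Bmp10 probe: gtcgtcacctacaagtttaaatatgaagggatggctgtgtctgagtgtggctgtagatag

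The 250 bases before the annotated start of 4 atrial genes are shown next, because these genes stood higher together in the strong set (RefSeq, build GRCm38.p6, 5′ to 3′ on the strand of the gene). Capitals mark GATAA, the core of GATA factor sites, searched on both strands (TTATC on the other). The windows are chr11:5898783-5899032 on the minus strand (Myl7), and on the plus strand chr4:148000472-148000721 (Nppa), chr6:87428744-87428993 (Bmp10) and chr3:108364661-108364910 (Mybphl).
Myl7: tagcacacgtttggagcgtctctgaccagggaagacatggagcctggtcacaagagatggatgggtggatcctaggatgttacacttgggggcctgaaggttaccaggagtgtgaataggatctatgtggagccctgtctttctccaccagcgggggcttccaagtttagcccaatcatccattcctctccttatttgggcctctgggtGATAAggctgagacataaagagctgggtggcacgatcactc
Nppa: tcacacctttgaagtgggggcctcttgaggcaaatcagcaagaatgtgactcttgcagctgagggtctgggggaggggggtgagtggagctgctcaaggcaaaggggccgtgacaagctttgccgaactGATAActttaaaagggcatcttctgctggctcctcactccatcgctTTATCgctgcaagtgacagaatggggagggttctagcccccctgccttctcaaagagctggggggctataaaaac
Bmp10: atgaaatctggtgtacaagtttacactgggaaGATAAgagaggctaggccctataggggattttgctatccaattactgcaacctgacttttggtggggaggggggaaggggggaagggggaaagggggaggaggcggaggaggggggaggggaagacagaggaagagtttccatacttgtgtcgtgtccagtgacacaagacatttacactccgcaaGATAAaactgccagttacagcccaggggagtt
Mybphl: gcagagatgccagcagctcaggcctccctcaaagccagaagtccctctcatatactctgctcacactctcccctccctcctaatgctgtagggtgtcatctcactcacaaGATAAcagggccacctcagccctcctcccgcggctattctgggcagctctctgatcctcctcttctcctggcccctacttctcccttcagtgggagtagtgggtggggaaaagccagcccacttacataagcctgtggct
Of 15 atrial genes looked up, 13 had such a window and 8 of these held GATAA (Myl7, Mybphl, Sbk3, Stard10, Nppa, Nppb, Bmp10 and Hamp). It occurred in 22.6% of all 32851 windows of that length. A CArG box, the site of serum response factor, occurred in the Myl7 window alone among the 13, against 1.47% of all windows. These are matches of letters in genes picked with their values known, and they show no binding.

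Levels below are log2 signals relative to each array's 75th percentile, and a difference is the strong mean minus the weak mean, with near-coinciding arrays averaged first. A fold given as at least some value is a bound on this scale only. A gene was called higher or lower in the strong set when all 9 pairs of 1 strong and 1 weak array differed at least 2-fold in that direction. Of 12723 genes that all 3 arrays of 1 set, or of both, detected well above background, 263 (2.07%) were higher in the strong set and 10 (0.0786%) were lower. The counts were 100 and 2 with normexp, an alternative background correction, and 101 and 2 in the deposited table. A gene that only 1 set detected on all 3 arrays entered through that set, which favours a difference. The 11802 genes well above background on all 6 arrays are therefore the fairer base: 112 of them (0.949%) were higher and 6 (0.0508%) were lower. Of the 263 higher genes, 65 were not well above background on any weak array and 86 on some of them. At a 4-fold gap in all 9 pairs 96 genes were higher and none lower, while 10 were lower at 2-fold. The median difference over all 12723 genes was 0.00.

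Spread within the sets gives a scale for these counts. Over the same 11802 genes, Sham 2 stood at least 2-fold above both Sham 1 and Sham 5 for 23 genes and below both for 43. Sham 10 stood at least 2-fold above both Sham 3 and Sham 4 for 141 genes and below for 8, though these 3 arrays nearly coincide over the most variable genes. Such counts need only 2 pairs of arrays to differ, not 9. In bulk tissue, fewer cells of a type and less of a transcript per cell cannot be told apart.

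**Figure D1:**
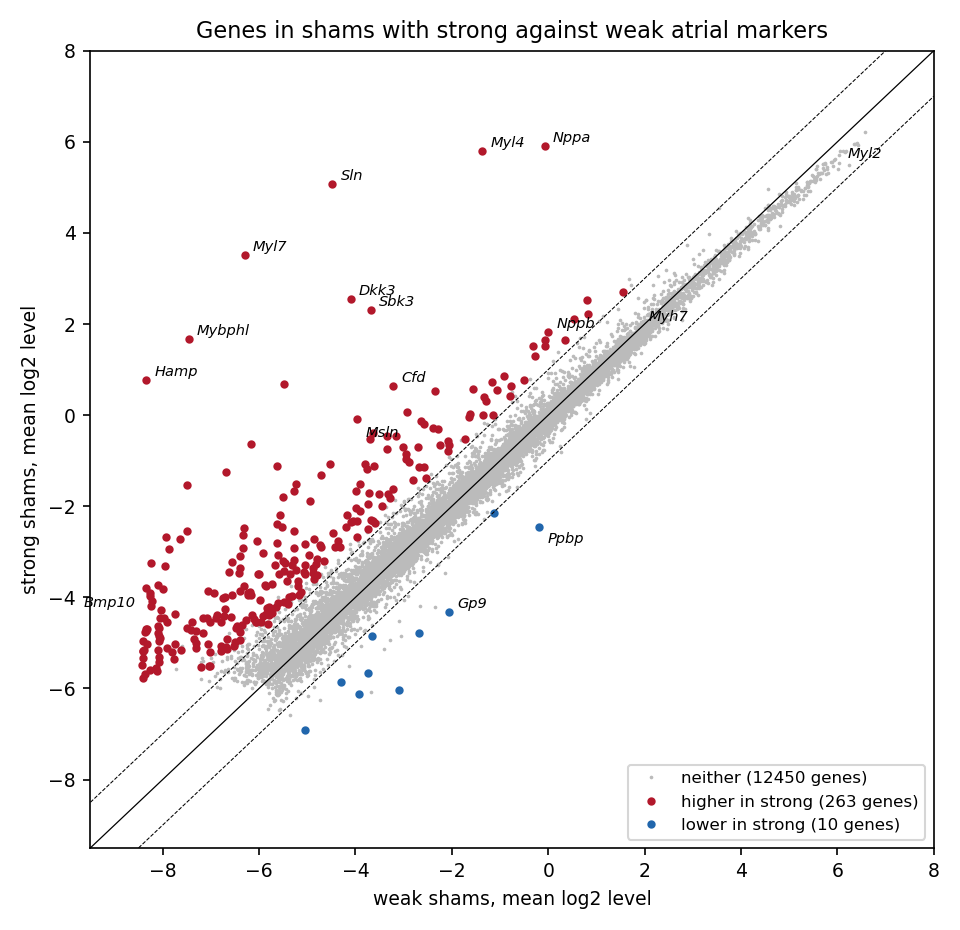
Mean log2 level of each of 12723 genes in the strong shams (vertical axis) against the weak shams (horizontal axis), both relative to the array's 75th percentile; the solid line marks equality and dashed lines 2-fold. The 263 higher genes (red) reach far above the line, with Myl7, Sln, Mybphl and Hamp farthest, while the 10 lower genes (blue) stay close to the dashed line.

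All 6 listed atrial contractile genes were called higher in the strong set, with a median difference of 6.58, but this includes Myl7, which chose the sets. The other 5 differed by 2.53 to 9.13. Only 3 of the 6 were well above background on all 6 arrays, with a median of 6.00. For Myl7, the atrial regulatory light chain, the levels were 3.52, 3.48 and 3.53 on Sham 3, 4 and 10, against -7.75, -4.94 and -7.57 on Sham 1, 2 and 5. The probe was well above background on Sham 2 alone among the weak arrays, and these are the values that chose the sets. Myl4, the atrial essential light chain, was well above background on all 6 arrays, at 5.59, 5.65 and 6.15 on the strong arrays and -2.11, -0.75 and -1.87 on the weak ones. Its difference was 7.17, or 144-fold, and Sham 2 was the highest of the weak arrays for both light chains.

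Other sarcomere-associated genes of the atrium followed. Mybphl, a myosin-binding protein of atrial muscle, read 1.73, 1.66 and 1.64 on the strong arrays and was not well above background on any weak array, which makes it at least 232-fold higher on this scale. With normexp background correction, and in the deposited table, its log2 difference was 6.25, smaller than that bound. Sbk3, an atrium-enriched kinase, lay at 2.30, 2.41 and 2.23 in the strong set and at -3.21, -4.38 and -2.77 in the weak set. Here Sham 2 was the lowest of the weak arrays, not the highest, and the sets did not overlap. Sbk2, the related kinase, differed by 2.53 and was measured on 1 weak array. Stard10, a lipid transfer protein, differed by 2.99.

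Among 5 measured calcium transport genes of the atrium, 2 were called. Sln, which slows the calcium pump of the sarcoplasmic reticulum, stood at 4.92, 5.04 and 5.24 on the strong arrays and at -5.48, -3.67 and -5.13 on the weak arrays, of which 2 were well above background. Cacna2d2, an auxiliary calcium channel subunit, stood at -1.33, -1.37 and -1.24 against -4.46, -4.99 and -4.39. Neither gene's sets overlapped. Cacna1g, the T-type channel pore (0.26), and the inositol trisphosphate receptors Itpr1 (0.11) and Itpr2 (0.03) were not called.

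Of 13 measured genes of natriuretic peptides and their release, 6 were called higher and none lower, with a median difference of 0.50. Nppa read 5.77, 5.74 and 6.24 on Sham 3, 4 and 10, against 0.97, -1.12 and 0.97 on Sham 1, 2 and 5, a difference of 5.99 or 63.5-fold. Nppb, which encodes brain natriuretic peptide, read 1.82, 1.72 and 1.93 against 0.27, -0.11 and -0.05, a far smaller difference of 1.82. Pam, the peptide-amidating enzyme abundant in atrial granule membranes, differed by 1.77, the clearance receptor Npr3 by 1.85 and adrenomedullin (Adm) by 1.44. The convertase Corin (-0.04) and Furin (-0.07) differed little, with overlapping sets. Npr1, the receptor for both peptides, and the granins Chga, Chgb and Scg2 were not well above background on any of the 6 arrays.

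Markers of the atrial side were few. Bmp10, which adult mouse heart makes mainly in the right atrium, read -3.83, -3.86 and -3.73 on the strong arrays and was not well above background on any weak array, which makes it at least 5.19-fold higher. Hamp, the iron regulator hepcidin, read 0.89, 0.79 and 0.66 and was likewise below that limit on all weak arrays, at least 125-fold higher on this scale. With normexp the log2 differences were 1.69 for Bmp10 and 5.68 for Hamp, and they were 1.78 and 5.68 in the deposited table, all smaller than these bounds. Hamp2, a close copy whose signal the Hamp probe might share, differed by 3.42. Shox2, a transcription factor of the sinus node, was not well above background in either set. Nodal and Lefty2 were not well above background on every array of either set, and Lefty1 differed by 0.76.

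Of 7 measured genes under other atrium-enriched genes 5 were called, with a median of 3.17, and of the 5 measured on all 6 arrays 3 were called, with a median of 1.98. Dkk3, a secreted protein of the Dickkopf family, read 2.44, 2.71 and 2.52 against -4.90, -3.32 and -4.88 (6.66). Fgf12, which modulates sodium channels, differed by 5.54 with 1 weak array well above background. Cpne5, a copine, differed by 3.17 and Gnao1, a G protein subunit, by 1.98. Clusterin (Clu), present at 4.48, 4.45 and 4.69 on the strong arrays and 3.64, 3.59 and 3.32 on the weak ones, did not overlap but fell short of 2-fold in some pairs.

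Ion channels and transcription factors that mark the atrium differed much less than the contractile genes. Gja5, the connexin of atrial muscle and fast conducting fibres, was the 1 gene called of 12 channels and connexins, at -0.09, -0.16 and -0.37 in the strong set against -2.38, -2.90 and -2.11 in the weak. The potassium channel subunits Kcnj3 (0.82) and Kcnj5 (0.52) of the acetylcholine-gated current were higher without overlap but below the 2-fold rule, and Kcna5 was lower (-0.48). Of 15 transcription factors, Tbx5 was called (1.36), and Nr2f2 (0.97) and Nr2f1 (0.65), which specify atrial identity, were higher without overlap. Nkx2-5 (-0.26) and Gata4 (-0.22), shared by both chambers, were slightly lower. Over all genes the sets did not overlap upward for 18.9% and downward for 14.7%, so lack of overlap alone says little.

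**Figure D2:**
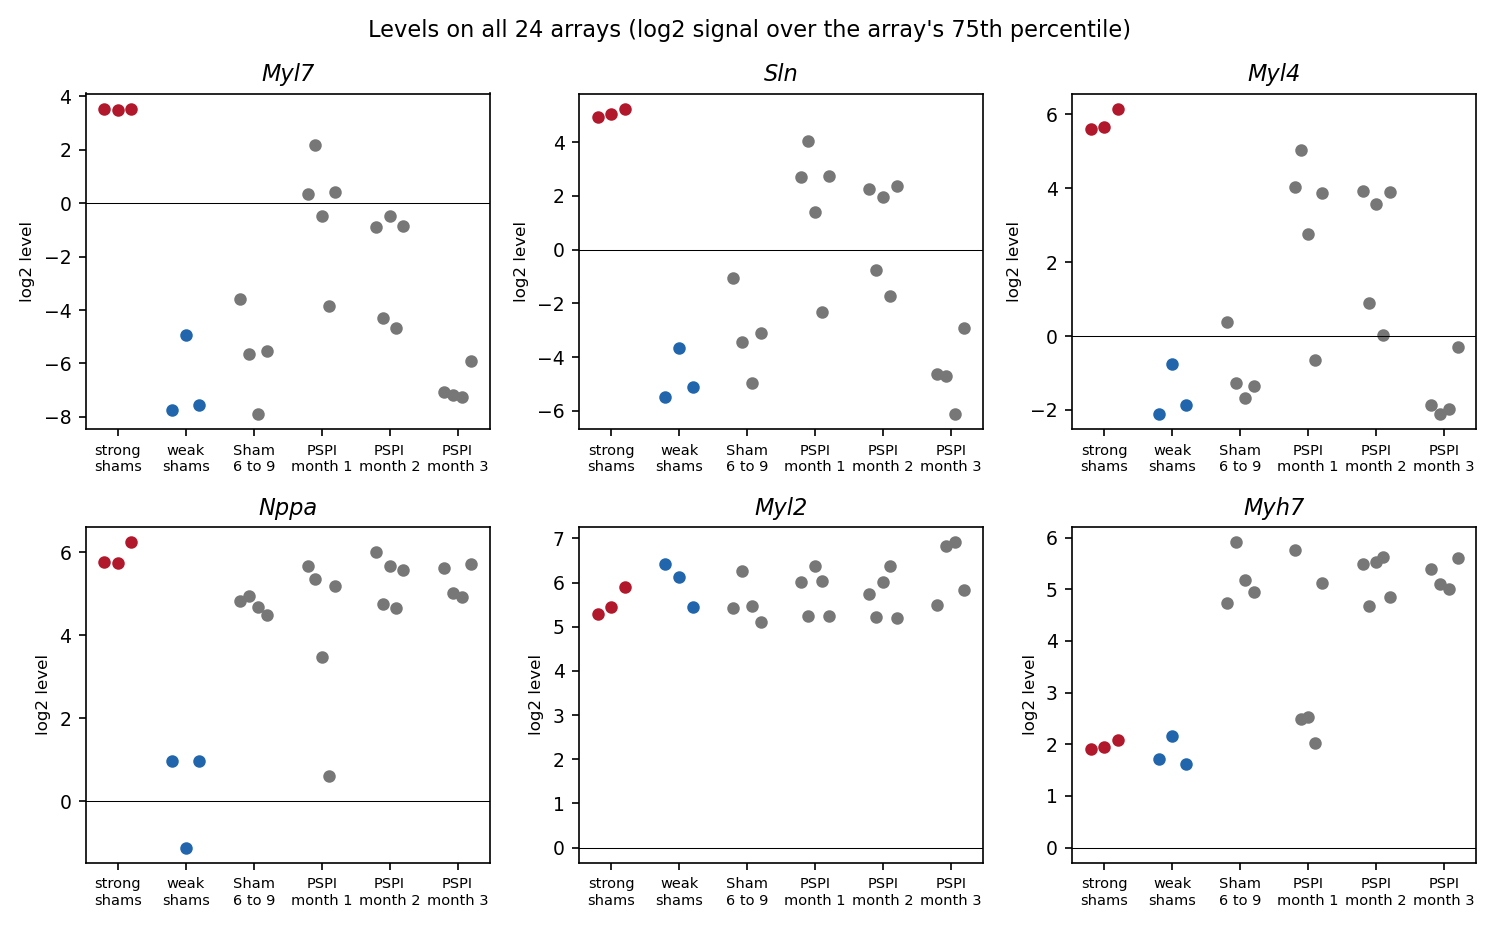
Log2 level of Myl7, Sln, Myl4, Nppa, Myl2 and Myh7 on all 24 arrays, 1 point per array, relative to the array's 75th percentile; strong shams (Sham 3, 4, 10) in red, weak shams (Sham 1, 2, 5) in blue, the other shams and the PSPI months in grey. The strong shams lie above every other array for Myl7, Sln and Myl4, while Myl2 and Myh7 do not separate the sets.

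Myl2, Myl3 and Irx4, which mark ventricular muscle, were well above background on all 6 arrays. Of 15 measured ventricular genes none was called, and the median difference was -0.34, with 6 members lower and 1 higher without overlap. Myl2, the ventricular regulatory light chain, read 5.30, 5.44 and 5.90 on the strong arrays, against 6.42, 6.14 and 5.45 on the weak arrays, with overlapping sets. Its difference was -0.91 within slide 1 and 0.44 within slide 3. Irx4, a transcription factor confined to ventricles, was lower on all strong arrays (-1.40, -1.52 and -1.19) than on all weak ones (-0.65, -0.79 and -1.04), with a difference of -0.74 within slide 1 and -0.15 within slide 3. Myh7, whose low level was part of the choice of the 6 arrays, differed by 0.07. Myh6, the fast heavy chain of both chambers, differed by -0.76, with -1.38 within slide 1 and 0.63 within slide 3.

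Genes of shared heart muscle functions were mostly slightly lower, and this too depended on the slide. None of 46 respiratory chain genes was called, and all 46 had differences below 0 (-0.48 to -0.02). Their median was -0.26 over both slides, -0.45 within slide 1 and 0.22 within slide 3. Of 36 fatty acid genes none was called, with a median of -0.28 (-0.34 within slide 1, -0.08 within slide 3). Of 29 shared sarcomere genes, 1 was called: Tnni1, the slow skeletal troponin I of fetal heart, which was near the limit of detection in the strong set and not well above background in the weak set (at least 1.41-fold).

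**Figure D3:**
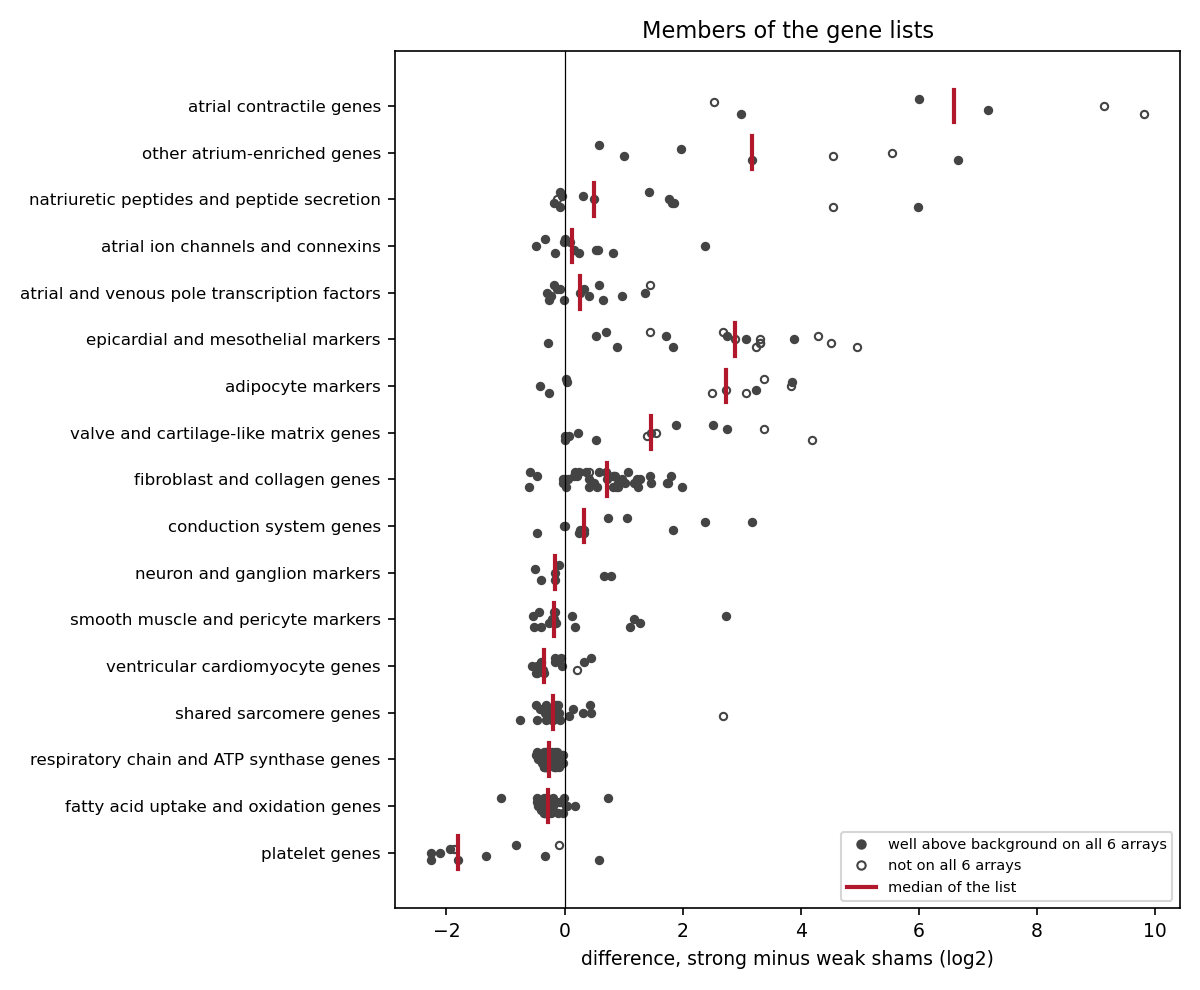
Difference between strong and weak shams (log2, horizontal axis) for each measured member of 17 gene lists; filled points were well above background on all 6 arrays, open points were not, and the red bar is the list's median. Atrial contractile genes lie farthest to the right, mesothelial and adipocyte lists also lie right of 0, metabolic and ventricular lists sit just left of 0, and platelet genes farthest left.

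The strong arrays also carried genes of tissues that lie on and around the heart surface. Of 19 measured epicardial and mesothelial markers 14 were called higher and none lower, with a median of 2.89, which was 1.34 with normexp and 1.37 in the deposited table. Of the 9 well above background on all 6 arrays, 5 were called, with a median of 1.72. The summed level of the list was 9.38 to 9.84 times the array's 75th percentile in the strong set and 5.25 to 5.53 times in the weak set. Msln, the mesothelial surface protein mesothelin, read -0.03, -0.08 and -0.12 on the strong arrays and -3.54, -4.35 and -3.62 on the weak arrays (3.89). Upk3b, a uroplakin of mesothelium, differed by 4.94 with 1 weak array well above background, and the mucin Muc16 by 4.51 with 2. Of the keratins of simple epithelia, Krt18 differed by 3.24 and Krt19 by 3.31, and Krt7 (at least 2.65-fold) and Krt8 (at least 2.75-fold) were not well above background on any weak array. Wt1, a transcription factor of the epicardium that endothelium also uses, differed by 0.54 only.

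Adipocyte genes split into those called and those level between the sets. Of 11 measured markers 6 were higher: Cfd (3.85), the lipid droplet protein Cidec (3.84), resistin (Retn, 3.38), Car3 (3.24), adiponectin (Adipoq, 3.07) and perilipin 1 (Plin1, 2.74). Of these 11, 5 were detected on all arrays of the strong set alone. Of the 6 well above background on all 6 arrays 2 were called, and their median was 0.035, against 2.74 over all 11. Cfd, which encodes the complement factor adipsin, read 0.68, 0.59 and 0.64 on the strong arrays, against -1.53, -4.88 and -1.59 on the weak ones. Sham 2 was the lowest weak array for all 6 of them, and the median of the whole list lay 2.36 lower on Sham 2 than on Sham 1 and 5. Against Sham 5 alone, on slide 3, Cfd differed by 2.23. Fabp4 (-0.26), Plin4 (0.03) and Lipe (0.04), which heart muscle or its vessels also express, differed little, and leptin (Lep) and Ucp1 were below that detection limit on all 6 arrays. The summed level of the list, carried by Fabp4, was 27.0 to 28.9 in the strong set and 28.6 to 30.1 in the weak set.

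Some matrix genes were higher as well, by less. Of 13 measured valve and cartilage-like genes 5 were called, with a median of 1.45: Fmod (fibromodulin, at least 5.16-fold), Cilp2 (at least 3.14-fold), lubricin (Prg4, 2.74), Comp (2.52) and Cytl1 (1.89). Of the 8 well above background on all 6 arrays 3 were called, with a median of 0.38, and over all 13 the median was 0.30 with normexp background correction. Comp read -0.09, -0.12 and -0.18 against -2.98, -2.37 and -2.85. On Sham 6 to 9, with Myl7 at -7.89 to -3.59, Comp read -0.86 to 0.32. In PSPI it read -2.21 to 1.59 in month 1, -0.49 to 1.38 in month 2 and 0.11 to 1.57 in month 3. Fmod read -3.89, -3.77 and -3.79 on Sham 3, 4 and 10, and -4.82 to -3.84 on Sham 6 to 9. These levels of Comp and Fmod were therefore not particular to the strong set. Aggrecan (Acan) and Col2a1, which define cartilage, were below that detection limit on all 6 arrays. Of 42 fibroblast and collagen genes 6 were called, with a median of 0.71. They were Mfap4 (1.98), Timp1 (1.80), Ccn5 (1.74), Gpx3 (1.74), periostin (Postn, 1.47) and Ltbp2 (1.45). The main fibrillar collagens Col1a1 (0.55), Col1a2 (0.50) and Col3a1 (0.72) were not called, and the basement membrane collagens Col4a1 (-0.59) and Col4a2 (-0.60) were lower without overlap.

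Lists for other neighbours of the heart stand beside 2.07% of all genes called higher, or 0.949% of those measured on all 6 arrays. Of 7 measured neuron and ganglion markers none was called (median -0.16), and of 9 Schwann cell markers 1 was, the myelin protein gene Mbp (2.20). Of 12 conduction system genes, all measured on all 6 arrays, 3 were called, Cpne5, Gja5 and Igfbp5 (1.83), with a median of 0.32. Cpne5 and Gja5 also belong to the atrial lists above. Without overlap 7 of the 12 were higher and 1 lower, against 18.9% and 14.7% of all genes. Hcn4 was below that detection limit on all 6 arrays. Of 2 measured lung epithelium markers the claudin gene Cldn3 was called (at least 1.79-fold), with a difference of 0.19 for Lamp3. Surfactant genes Sftpa1, Sftpb and Sftpc of the lung and the fast skeletal myosins Myh1, Myh2 and Myh4 were likewise below that limit on all 6 arrays. No marker of B cells was above it on all 3 arrays of either set (Cd79b was on 2 strong and 2 weak arrays), and none of 4 T cell markers was called. Among retinoic acid genes, the retinol carrier Rbp4 (2.00) was called, and the synthesis enzyme Aldh1a2 differed by 0.88.

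Higher genes measured on all 6 arrays were ranked by difference, among those with a plain gene symbol (not a clone, predicted-gene or accession-like name). The 15 with the largest differences were Myl4, Dkk3, Sbk3, Nppa, Msln, Cfd, Cyp2s1, Cyp2e1, Cacna2d2, Car3, Cpne5, Rspo1, Stard10, Ahsg and Hp. Cyp2e1, a cytochrome P450 of liver and fat, read -1.01, -1.09 and -1.13 on the strong arrays and -3.20, -5.92 and -3.10 on the weak arrays. Like Cfd, Car3 and Hp it was lowest on Sham 2. Ahsg, a plasma protein made mainly by liver, differed by 2.90 and haptoglobin (Hp) by 2.88. Among the genes below the limit on all weak arrays were also Cd207, the langerin of Langerhans-type dendritic cells (at least 29.6-fold), the anion transporter Slc22a7 (at least 24.6-fold), serine dehydratase (Sds, at least 11.4-fold) and the chemokine Cxcl13 (at least 7.68-fold). These bounds too hold on this scale only.

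Of the 10 lower genes, 5 encode platelet products. Ppbp, the platelet basic protein, read -2.39, -2.39 and -2.57 on the strong arrays, against -0.81, 0.47 and -0.88 on the weak ones, a difference of -2.26. Gp9, a subunit of the platelet receptor for von Willebrand factor, differed by -2.26, Rgs18 by -2.11 and Tmem40 by -1.93, and the collagen receptor Gp6 was at least 2.26-fold lower. A platelet list was added after these values had been seen. Of its 11 measured members these 5 were lower, Treml1 (-1.80), Clec1b (-1.34) and Itgb3 (-0.82) were lower without overlap, and the sets overlapped for Pf4 (-0.33) and Thbs1 (0.58). Sham 2 stood above Sham 1 and 5 by a median of 1.15 over the list. The other 5 lower genes were S100a9, AI661384, Cib3, Klra8 and Lrfn4. S100a9, a neutrophil and monocyte gene, had the largest difference of the 10 (-2.94) and was well above background on 2 strong arrays.

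**Figure D4:**
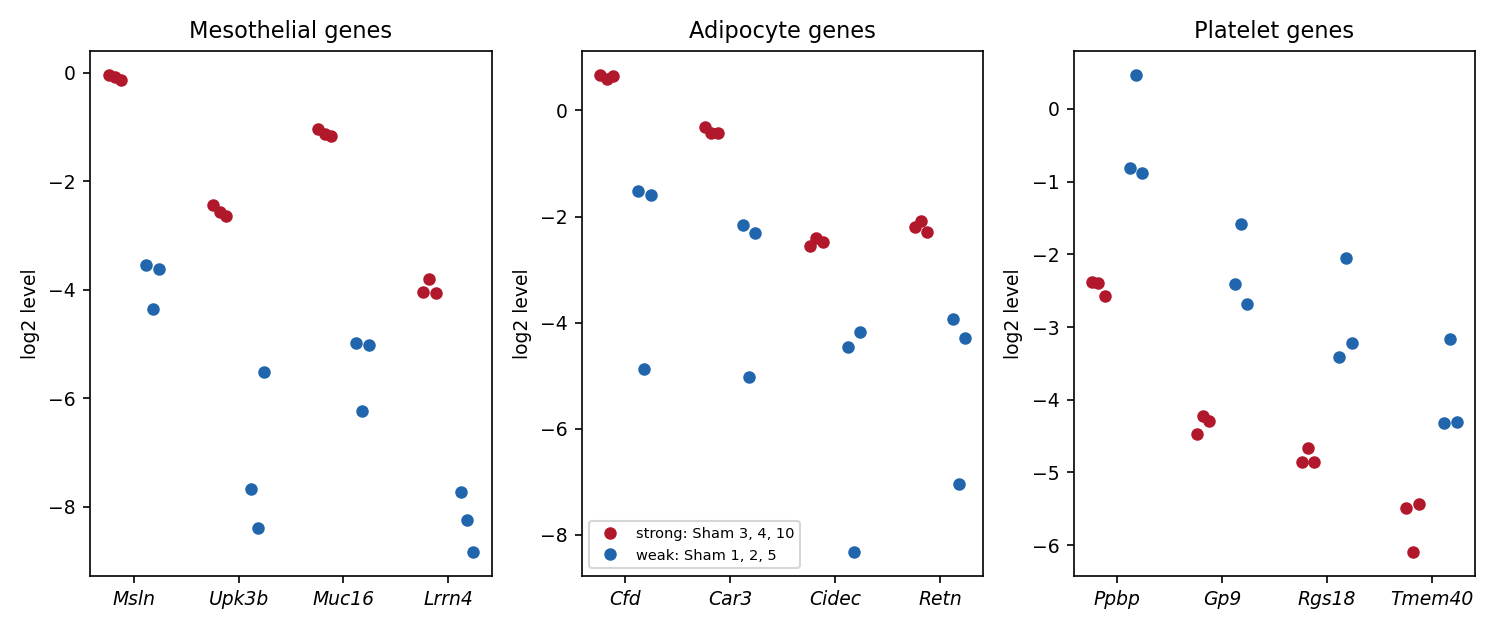
Log2 level of 4 mesothelial, 4 adipocyte and 4 platelet genes on each strong array (red, left of each pair) and each weak array (blue, right; Sham 1, 2 and 5 in that order). The 3 strong arrays lie close together, and the middle blue point, Sham 2, lies lowest for all 4 adipocyte genes and highest for all 4 platelet genes.

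The 18 arrays outside the sets show whether these genes stay together elsewhere. Myl7 was at -7.89 to -3.59 on Sham 6 to 9, at -3.84 to 2.19 in month 1 of PSPI, at -4.67 to -0.47 in month 2 and at -7.27 to -5.92 in month 3. Of the shams, the nearest to the limit of 2 from below was Sham 6 (-3.59), and the weak array nearest to the limit of -4 was Sham 2 (-4.94). Sham 7, 8 and 9 also lay below -4 but had the high Myh7 level. Of the other 18 arrays only month 1 sample 2 exceeded 2 (2.19), and it too had low Myh7 (2.49).

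Month 1 sample 2 and month 1 sample 4 were both PSPI and both at low Myh7 (2.49 and 2.03). They differed from each other in the same direction as the 2 sham sets for the atrial genes given here, by less. Of month 1, sample 2 had the highest Myl7 (2.19) and sample 4 the lowest (-3.84). Month 1 sample 3, also at low Myh7 (2.52), had Myl7 at -0.49. It lay between samples 2 and 4 for Sln (1.41), Myl4 (2.76), Nppa (3.47) and Mybphl (-2.57). Sln was 4.03 on sample 2 and -2.33 on sample 4, Myl4 was 5.03 and -0.66, Nppa was 5.36 and 0.61, and Mybphl was 0.32 and -5.46. Dkk3 was 1.06 and -2.81, Sbk3 was 0.87 and -3.04, and Cacna2d2 was -3.87 and -4.55, a far smaller gap than between the sham sets. Bmp10 was well above background on sample 2 (-4.60) and on none of the other 17 arrays. Msln went the other way, at -0.41 on sample 2 and 0.97 on sample 4, and Upk3b was -2.93 and -2.67. Msln and Upk3b were therefore at about the level of the strong shams, or above it, on an array with low Myl7.

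Arrays that nearly coincide were averaged, which left 14 samples outside the sets (3 sham, 11 PSPI), and 27 named genes were related to Myl7 across them. Of these, 7 passed a permutation test of Spearman's rho at 0.05 after Benjamini-Hochberg adjustment over the 27 (100000 resamples, two-sided). Sln had Pearson's r of 0.98 and rho of 0.96 (permutation, adjusted p = 0.000135 each), the smallest adjusted value these resamples gave. Myl4 had r of 0.97 and rho of 0.93 (permutation, adjusted p = 0.000135 and 0.00018). The relation held for Sln at r of 0.97 and for Myl4 at 0.95 without the 2 samples farthest from the median of Myl7, and at rho of 0.86 for both within slide 2 (n = 8 arrays). The other 5 were Mybphl (r 0.92, rho 0.82), Sbk3 (r 0.83, rho 0.83), Cfd (r 0.83, rho 0.85), Car3 (r 0.90, rho 0.90) and Cyp2e1 (r 0.91, rho 0.91). This relation was chosen after the data had been seen, with genes named because they differed between the 2 sham sets. Its p-values treat the 14 samples as interchangeable across sham and the PSPI months. Myl7 differed between months (-3.84 to 2.19 in month 1, -7.27 to -5.92 in month 3), so month differences enter these values. The labels do not say that samples are separate animals, so the p-values do not extend to animals.

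No relation of Nppa to Myl7 passed the test in these samples (r 0.06, rho 0.16, permutation adjusted p = 0.863 and 0.643). It stood at 4.49 to 4.93 on Sham 6 to 9, where Myl7 was low and Myh7 high. Msln gave r of 0.41 and rho of 0.41 (permutation adjusted p = 0.213 and 0.238), and Dkk3 r of 0.46 and rho of 0.49 (0.167 and 0.182). The 14 samples mix sham and months, which differ in both measures, and slide 2 alone held enough of them for a value of its own. Ppbp, lower in the strong shams, had a positive rho of 0.60 here (permutation adjusted p = 0.0747). Over the 11 PSPI samples alone, rho was 0.95 for Sln, 0.90 for Cfd, 0.03 for Nppa and 0.65 for Msln.

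**Figure D5:**
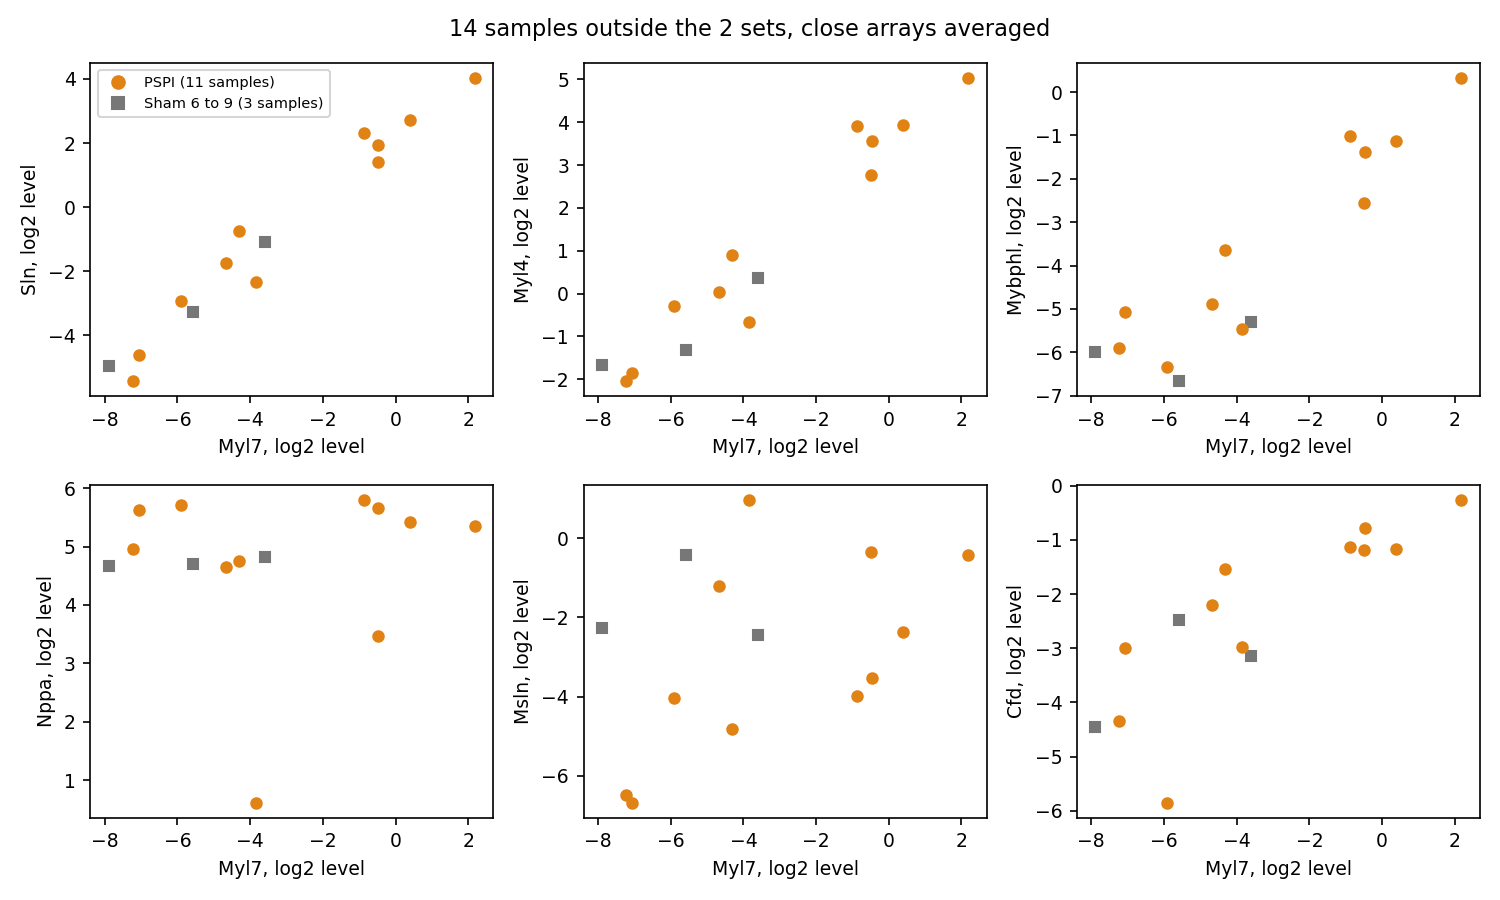
Log2 levels of Sln, Myl4, Mybphl, Nppa, Msln and Cfd against Myl7 in the 14 samples outside the 2 sets, with near-coinciding arrays averaged; circles are PSPI samples and squares are shams. Sln and Myl4 follow Myl7 closely, Nppa is high at nearly every Myl7 level, and Msln scatters.

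Beside the atrial genes, 14 of 19 mesothelial, 6 of 11 adipocyte, 5 of 13 valve and 6 of 42 fibroblast genes were called higher. Of 11 platelet genes 5 were called lower, but that list was added after these values had been seen. Its count can therefore not be weighed against the share over all genes. Over all genes 2.07% were called higher and 0.0786% lower. In the same order, 10, 5, 5 and 1 of the listed genes were detected on all arrays of the strong set alone, which favours a higher call. Of those well above background on all 6 arrays, 5 of 9 mesothelial, 2 of 6 adipocyte, 3 of 8 valve and 6 of 41 fibroblast genes were called higher. Over all genes on that base 0.949% were called higher. Adipocyte genes well above background on all 6 arrays had a median of 0.035 only, and valve genes 0.38. The part of these genes in the differences was not tested. With 1 distinct strong sample, the atrial signal and everything else particular to that sample cannot be told apart.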

How the data were processed

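RNA of mouse right ventricle was measured on 24 one-colour Agilent arrays. Per the file headers and the submitters' processing notes, the scanner software was Agilent Feature Extraction 10.7.3.1. The deposited scanner files give intensity values on a linear scale, and per the file headers the processed signal is background-subtracted and detrended within the array. The deposited table holds intensity values equal to the net signal for 62976 of 62976 spots per array (relative tolerance 0.001), so that table was not scaled between arrays. How the authors made it is not given in the sources used here.

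Controls were dropped, as were spots flagged as outliers (143 to 290 on an array), and replicate spots of a probe were averaged. The log2 processed signal was reduced by each array's 75th percentile over 16937 probes well above background on all 24 arrays. Of 55681 probes, 16277 named ones were kept, well above background on all arrays of at least 1 set, and a gene was represented by its brightest kept probe (12723 genes, 9773 with 1 probe). Names came from the accession (26582 probes), a current symbol (2602), an older symbol (492) or the file (1421); 24584 probes had none. RefSeq tables of GRCm38.p6 gave names and windows, and probe coordinates are the design's, in mm9.

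Where no array of the dimmer set detected a gene well above background, the fold is a bound ("at least"). Its denominator averages, over the dimmer arrays, the larger of 2 levels: that of the dim probe, and the lowest among probes well above background there. It is not a bound under other background handling. For Mybphl, Hamp and Bmp10 the differences with normexp and in the deposited table were smaller than their bounds, and the other bounds were not compared in this way. Groups came from the titles, and the sets and the 36 gene lists were chosen with earlier results of these data known. Named genes are the 15 highest and up to 15 lowest measured on all 6 arrays. To these come up to 10 in each direction not above background in the dimmer set. Both rankings took only plain gene symbols. Also named are all measured atrial, natriuretic and ventricular list members, and the 4 largest differences of each other list. The text names part of them. Further ones (among them Wt1, Fabp4, Pf4, the collagens and the genes below background) were chosen after their values were seen. The platelet list and the relation to Myl7 were added after values had been seen. The comparison was tested on simulated data. Python 3.11.15 with numpy 2.4.6, pandas 2.3.3, scipy 1.17.1 and matplotlib 3.10.9, and R 4.3.3 with limma 3.58.1 (normexp alternative only) were used. The number of arrays limits the precision. Results for a few genes are not reported here.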

Additional observations from a re-analysis of the deposited data

Results flagged for a closer look

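Single arrays were compared with the rest of their labelled group for 10 genes in 40 combinations of gene and group of 4 to 10 arrays. Near-coinciding arrays were not averaged here, such as month 3 samples 2 and 3 (0.23 apart) and month 1 samples 1 and 5 (0.30). Chance would flag about 1 in 20 among independent samples, a rate that need not hold for these groups. In month 3 of PSPI, sample 4 stood apart upward from the other samples for Myl7 (-5.92, next -7.07) and Myl4 (-0.30, next -1.86). That array had 56.1% of probes well above background, against 36.1% to 41.7% on the other month 3 arrays. In month 1, sample 2 stood apart for Bmp10 (-4.60, next -7.70), the only array of that month on which the gene was well above background. Neither array belongs to the 2 sham sets, and sets of 3 arrays were too small to be looked at in this way.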

How the results depend on the processing

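The number of genes higher and lower in the strong shams was 263 and 10 as reported, 100 and 2 after normexp background correction, 101 and 2 in the deposited table, 112 and 6 with only probes well above background on all 6 arrays, 292 and 17 with no filter on dim probes, 341 and 25 within slide 1, 737 and 322 within slide 3 (1 array of each set), 451 and 30 at 1.5-fold and 96 and 0 at 4-fold. Leaving out 1 array at a time gave 272 to 304 higher and 10 to 24 lower, with 24 lower without Sham 2 and 20 without Sham 1. The median difference of atrial contractile genes (6.58) was 6.49 with the percentile over all probes, 5.84 with normexp and in the deposited table, 6.00 with only probes measured on all 6 arrays, 6.50 within slide 3 and 6.50 to 6.67 with 1 array left out. This list includes Myl7, which chose the sets, and 3 of its 6 members were detected on all arrays of the strong set alone. Because Sham 3, 4 and 10 nearly coincide, leaving out 1 of them could move it little. The ventricular median (-0.34) was -0.44 with the percentile over all probes, -0.13 after quantile normalization, -0.26 without the filter, -0.19 within slide 1, -0.21 within slide 3 and -0.32 to -0.19 with 1 array left out. Mesothelial markers (2.89) stood at 1.34 with normexp, 1.37 in the deposited table, 1.72 on all 6 arrays and 2.68 to 3.02 with 1 array left out. Adipocyte markers (2.74) stood at 0.89, 0.93 and 0.035 under the same 3 settings, 1.73 without the filter, 1.61 within slide 3 and 1.56 to 2.87 with 1 array left out, lowest without Sham 2. Valve and cartilage-like genes (1.45) stood at 0.30, 0.37 and 0.38, at 0.63 without the filter and at 1.08 to 1.58 with 1 array left out. Platelet genes (-1.80) stood at -0.96 within slide 3 and -1.98 to -1.14 with 1 array left out. Within slide 3, Myl2 (0.44) and Myh6 (0.63) took the opposite sign. The causes of these shifts were not tested, except that fewer genes or arrays enter some settings. No paired analysis was possible because the sets share no replicate numbers and their comparison has no test. Where a probe lay near background on the weak arrays, the size of its difference is poorly known.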
